A study of Sus scrofa with 9 samples.

Results

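Spleens of Ningxiang pigs, a Chinese indigenous breed, were compared between postnatal day 210 and postnatal day 90, with 3 RNA-seq libraries at each age and no treatment named for either. These 6 of the 9 libraries in the series were taken by their age labels, and the other 3, of day 30 spleens, shared the estimate of spread and the filter. Loci entered with a mean of at least 1 FPKM (fragments scaled to locus length and library depth) over the 9 libraries, which held for 19264 of 28095 loci, and circular RNAs (circRNAs) were read from a second table. The comparison asks which loci, protein families and circRNAs differed between these ages. Whether the 3 libraries of an age came from separate animals is not stated, so p-values reflect the spread of these libraries alone, which may be technical. Sex was not labelled. Loci are named by their deposited protein description, and coordinates are those of the deposited table, whose build is not certain.

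The spleen filters blood and mounts responses to antigens carried in it. In the red pulp, macrophages take up worn red cells and recycle their iron, while the white pulp holds follicles of B cells and zones of T cells. Antigen is shown to T cells on class I and class II molecules of the major histocompatibility complex, called SLA in the pig, and transcription regulators such as AP-1 dimers of FOS and JUN proteins are made within minutes to hours of many stimuli in most tissues.

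Each library held 48.9 to 62.1 M counted reads. Markers of spleen cells were present at both ages: the 4 matched B cell markers summed to 44.0 to 49.9 FPKM in day 210 libraries and 82.6 to 95.7 FPKM in day 90 libraries. The 5 T cell markers summed to 87.4 to 105 FPKM at day 210 and 59.1 to 93.2 FPKM at day 90, and the 5 red pulp macrophage markers to 576 to 950 FPKM at day 210 and 464 to 630 FPKM at day 90. Smooth muscle markers, of the capsule and trabeculae, summed to 351 FPKM in day 210 replicate 1, against 111 to 188 FPKM in the other 5 libraries. Adipocyte markers summed to under 1 FPKM in every library, with ADIPOQ listed at 0. One locus with no description on chromosome 10 (MSTRG.13356) took 7.02% and 7.01% of counts in day 90 replicates 2 and 3. Of 75 listed marker genes 53 were matched to a description, and defining markers such as CD79A and CD3G were not among them.

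At day 210, 103 of 19264 loci (0.535%) differed from day 90 with an adjusted p under 0.05, of which 67 (0.348%) were higher and 36 (0.187%) lower. Without adjustment 2717 loci (14.1%) had a p under 0.05, 1493 higher (7.75%) and 1224 lower (6.35%). Libraries of both ages did not overlap in FPKM at 3104 loci (16.1%), and at all 103 called ones. The called changes were of at least 0.59 on the log2 scale, 59 of them of at least 1, and the median over all tested loci was 0.00. The calls depended on single libraries. Without day 210 replicate 1, 32 loci were called, 23 of them among the 103, and without day 210 replicate 2, 35 and 27. Omitting day 30 replicate 2 gave 61, 53 of them among the 103. Omitting day 90 replicate 1, 2 or 3 gave 11, 7 and 7, of which 7, 6 and 7 were among the 103. Called without each of the 9 libraries in turn were 4 loci, namely CD79B and 3 loci with no description (MSTRG.10430, MSTRG.1030 and MSTRG.12097). By limma on log2(FPKM + 1) 88.5% of called loci were higher, against 65.0% by edgeR, with the median of all loci moved by 0.108. In bulk tissue fewer cells of a type and less RNA per cell cannot be told apart, here and in all that follows.

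Called increases among described loci included FOS, FOSB, JDP2, NR4A1 and VGLL3, which were grouped here by their known role after their values were seen. FOS and FOSB are the DNA-binding partners of JUN in AP-1, JDP2 represses AP-1 sites, NR4A1 is an orphan nuclear receptor, and VGLL3 is a cofactor of TEAD factors. FOS (MSTRG.10340, chromosome 7, 53506450 to 53508913) had 27.5, 38.1 and 15.4 FPKM in day 210 libraries, against 6.47, 4.34 and 4.52 FPKM in day 90 libraries. As the choice of loci required, every day 210 library was above every day 90 library. The second day 210 library was the highest. FOS changed by 2.25 ± 0.39 (adjusted p = 0.0479) on the log2 scale, a call lost without day 210 replicate 1 or 2, day 30 replicate 3 or any day 90 library (adjusted p = 0.0576 to 0.178). FOSB (MSTRG.9082, chromosome 6, 120186329 to 120190460) had 3.78, 3.77 and 1.91 FPKM in day 210 libraries, against 0.475, 0.249 and 0.0788 FPKM in day 90 libraries, all low levels. Its mean over the 9 libraries was 1.33 FPKM, with 0.571 FPKM at day 30, so it passed the filter only through its day 210 libraries. FOSB changed by 3.41 ± 0.53 (adjusted p = 0.04004), a call lost without day 210 replicate 1 or 2, day 30 replicate 2 or any day 90 library (adjusted p = 0.0515 to 0.144). JDP2 (MSTRG.10339, chromosome 7, 53339626 to 53372493), the next locus to FOS in the deposited order, had 3.85, 4.04 and 3.88 FPKM in day 210 libraries, against 1.45, 1.14 and 1.36 FPKM in day 90 libraries. Its libraries lay close together within each age. JDP2 changed by 1.42 ± 0.13 (adjusted p = 0.00710), a call lost without day 90 replicate 2 (adjusted p = 0.0503). NR4A1 (MSTRG.6653, chromosome 5, 12630119 to 12638462) had 7.78, 10.9 and 5.60 FPKM in day 210 libraries, against 2.38, 2.03 and 2.10 FPKM in day 90 libraries. NR4A1 changed by 1.73 ± 0.21 (adjusted p = 0.0201), a call lost without any day 90 library (adjusted p = 0.0808 to 0.0957). VGLL3 (MSTRG.16878, chromosome 13, 148266997 to 148310281) had 2.25, 1.73 and 1.89 FPKM in day 210 libraries, against 0.804, 0.615 and 0.550 FPKM in day 90 libraries. VGLL3 changed by 1.43 ± 0.25 (adjusted p = 0.0494), a call lost without any day 210 library, day 30 replicate 2 or any day 90 library (adjusted p = 0.0718 to 0.170). At day 30, 90 and 210 FOS averaged 7.10 ± 3.55, 5.11 ± 1.18 and 27.0 ± 11.3 FPKM, and VGLL3 1.89 ± 0.477, 0.656 ± 0.132 and 1.96 ± 0.263 FPKM (SD, n = 3 each), so that FOS stood apart at day 210 and VGLL3 at day 90.

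Among the other called increases, DUSP1, RGS1 and CDKN1A are known as inhibitors within signalling or the cell cycle. DUSP1 (MSTRG.19567, chromosome 16, 28612296 to 28617602), a phosphatase that switches off MAP kinases, had 26.6, 28.2 and 19.0 FPKM in day 210 libraries, against 8.28, 8.54 and 7.69 FPKM in day 90 libraries. DUSP1 changed by 1.42 ± 0.16 (adjusted p = 0.0188), a call lost without any day 90 library (adjusted p = 0.0591 to 0.0758). RGS1 (MSTRG.13546, chromosome 10, 30301304 to 30306960), which speeds the shut-off of G proteins below chemokine receptors, had 17.7, 26.9 and 13.3 FPKM in day 210 libraries, against 5.35, 6.89 and 5.63 FPKM in day 90 libraries. The second day 210 library was again the highest. RGS1 changed by 1.51 ± 0.26 (adjusted p = 0.0451), a call lost without day 210 replicate 1 or 2, any day 30 library or any day 90 library (adjusted p = 0.0578 to 0.160). CDKN1A (MSTRG.11111, chromosome 7, 119468274 to 119471097), the p21 inhibitor of cyclin-dependent kinases, had 6.14, 6.18 and 5.32 FPKM in day 210 libraries, against 1.70, 1.73 and 1.73 FPKM in day 90 libraries, with a very narrow spread at day 90. CDKN1A changed by 1.60 ± 0.26 (adjusted p = 0.0415), a call lost without any day 210 library, day 30 replicate 3 or any day 90 library (adjusted p = 0.0565 to 0.144). Outside the 12 largest, and named after their values were seen, PPP1R15A, a phosphatase subunit that restores protein synthesis after stress, changed by 0.96 ± 0.16 (adjusted p = 0.0429), a call lost without any day 210 library, day 30 replicate 1 or 2 or any day 90 library (adjusted p = 0.0548 to 0.160). RHOB, a small GTPase, changed by 0.82 ± 0.14 (adjusted p = 0.0462), a call lost without any day 210 library, day 30 replicate 1 or 2 or any day 90 library (adjusted p = 0.0578 to 0.181). MCM5 (MSTRG.6555, chromosome 5, 5076326 to 5106606), a subunit of the replicative DNA helicase and likewise named after its values were seen, had 91.5, 80.9 and 72.3 FPKM in day 210 libraries, against 41.5, 35.8 and 34.8 FPKM in day 90 libraries. MCM5 changed by 0.97 ± 0.13 (adjusted p = 0.0238), a call lost without day 210 replicate 1 or 2 or any day 90 library (adjusted p = 0.0573 to 0.110). The cycling cell markers MKI67 and CDK1 together were at 7.13 to 21.8 FPKM in day 210 libraries and 14.04 to 21.1 FPKM in day 90 libraries, and neither passed the test.

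Several loci that rose encode surface or membrane proteins known from macrophages. CD163 (MSTRG.7649, chromosome 5, 107612555 to 107646713), the receptor by which macrophages clear haemoglobin bound to haptoglobin, had 145, 148 and 90.4 FPKM in day 210 libraries, against 55.9, 45.0 and 35.5 FPKM in day 90 libraries. This was the most abundant of the named increases, with a change of 1.34 ± 0.19 (adjusted p = 0.0272), a call lost without day 210 replicate 1 or 2 or any day 90 library (adjusted p = 0.0672 to 0.118). SLC11A1 (MSTRG.19233, chromosome 15, 122146576 to 122159623), a metal ion transporter of phagosomes also called NRAMP1, had 27.3, 30.9 and 23.7 FPKM in day 210 libraries, against 7.27, 8.35 and 6.58 FPKM in day 90 libraries. SLC11A1 changed by 1.71 ± 0.19 (adjusted p = 0.0188), a call lost without day 90 replicate 1 or 3 (adjusted p = 0.0591 to 0.0782). CD200R2 (MSTRG.16790, chromosome 13, 125337590 to 125384780), described as a receptor of the CD200 family, had 7.81, 7.23 and 4.25 FPKM in day 210 libraries, against 1.35, 1.88 and 1.80 FPKM in day 90 libraries. CD200R2 changed by 1.73 ± 0.28 (adjusted p = 0.0415), a call lost without day 210 replicate 1 or 2, day 30 replicate 1 or 2 or any day 90 library (adjusted p = 0.0523 to 0.134). MERTK (MSTRG.4567, chromosome 3, 84884306 to 85046811), a receptor kinase for uptake of dying cells and named after its values were seen, had 10.1, 8.09 and 7.10 FPKM in day 210 libraries, against 5.41, 4.15 and 4.07 FPKM in day 90 libraries. MERTK changed by 0.74 ± 0.12 (adjusted p = 0.0415), a call lost without day 210 replicate 1 or 2, day 30 replicate 2 or 3 or any day 90 library (adjusted p = 0.0577 to 0.152). PLAUR, the urokinase receptor, also named after its values were seen, changed by 0.81 ± 0.13 (adjusted p = 0.0419), a call lost without any day 210 library, day 30 replicate 3 or any day 90 library (adjusted p = 0.0525 to 0.163). Of the 4 tested red pulp macrophage markers CD163 alone had an unadjusted p under 0.05, while VCAM1, SPIC and C1QA had changes of 0.33, 0.08 and 0.17. The part of macrophage number in these increases was not tested.

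The largest increase among described loci was that of the immunoglobulin E epsilon chain (MSTRG.22035, Scaffold1483, 18542 to 37740), the heavy chain of the antibody class that arms mast cells and basophils. It had 2.51, 2.04 and 4.70 FPKM in day 210 libraries, against 0.0605, 0.0846 and 0.0996 FPKM in day 90 libraries. The ages were far apart at a low level. Its mean over the 9 libraries was 1.12 FPKM, with 0.203 FPKM at day 30, so it passed the filter only through its day 210 libraries. A locus this low at day 90 could be tested only if it was high at another age. IgE changed by 5.03 ± 0.66 (adjusted p = 0.0231), a call lost without any day 90 library (adjusted p = 0.0965 to 0.110). The plasma cell markers JCHAIN and SDC1 did not pass the test, at changes of 0.03 and 0.32, and heavy chain loci are similar in sequence, so reads may be shared between them.

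Other described loci that rose were named after their values were seen and are of varied function. Dystonin (DST), a giant linker of cytoskeletal filaments, had 13.6, 13.4 and 9.70 FPKM at day 210, against 6.02, 5.21 and 4.99 FPKM at day 90. DST changed by 1.018 ± 0.17 (adjusted p = 0.0415), a call lost without day 210 replicate 1 or 2, day 30 replicate 2 or any day 90 library (adjusted p = 0.0668 to 0.149). INSIG1, which holds back the activation of cholesterol synthesis, had 7.42, 10.1 and 6.58 FPKM at day 210, against 4.32, 3.56 and 3.15 FPKM at day 90. INSIG1 changed by 0.98 ± 0.17 (adjusted p = 0.0451), a call lost without day 210 replicate 1 or 2, any day 30 library or any day 90 library (adjusted p = 0.0510 to 0.169). GMPR, which turns GMP into IMP, had 27.3, 22.4 and 18.7 FPKM at day 210, against 12.4, 10.8 and 9.44 FPKM at day 90. GMPR changed by 0.91 ± 0.16 (adjusted p = 0.0460), a call lost without day 210 replicate 1 or 2, day 30 replicate 1 or 2 or any day 90 library (adjusted p = 0.0556 to 0.169). ITIH3, which binds hyaluronan in the matrix, had 4.67, 5.21 and 4.58 FPKM at day 210, against 2.66, 2.10 and 2.19 FPKM at day 90. ITIH3 changed by 0.91 ± 0.11 (adjusted p = 0.0188), a call lost without any day 90 library (adjusted p = 0.0773 to 0.0957). Each of these 4 separated the ages in all libraries, as did all 103 called loci. ABLIM3, an actin-binding LIM protein, changed by 1.303 ± 0.23 (adjusted p = 0.0476), a call lost without day 210 replicate 2 or 3, any day 30 library or any day 90 library (adjusted p = 0.0648 to 0.170). SMIM3, a small membrane protein, changed by 1.001 ± 0.14 (adjusted p = 0.0308), a call lost without day 210 replicate 2 or any day 90 library (adjusted p = 0.0883 to 0.136). RTN4RL2, a relative of the Nogo receptor, changed by 1.19 ± 0.21 (adjusted p = 0.0488), a call lost without any day 210 library, day 30 replicate 2 or 3 or any day 90 library (adjusted p = 0.0577 to 0.162). PHYHD1, a dioxygenase domain protein, changed by 0.72 ± 0.12 (adjusted p = 0.0415), a call lost without any day 210 library, day 30 replicate 2 or 3 or any day 90 library (adjusted p = 0.0565 to 0.144).

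**Figure D1:**
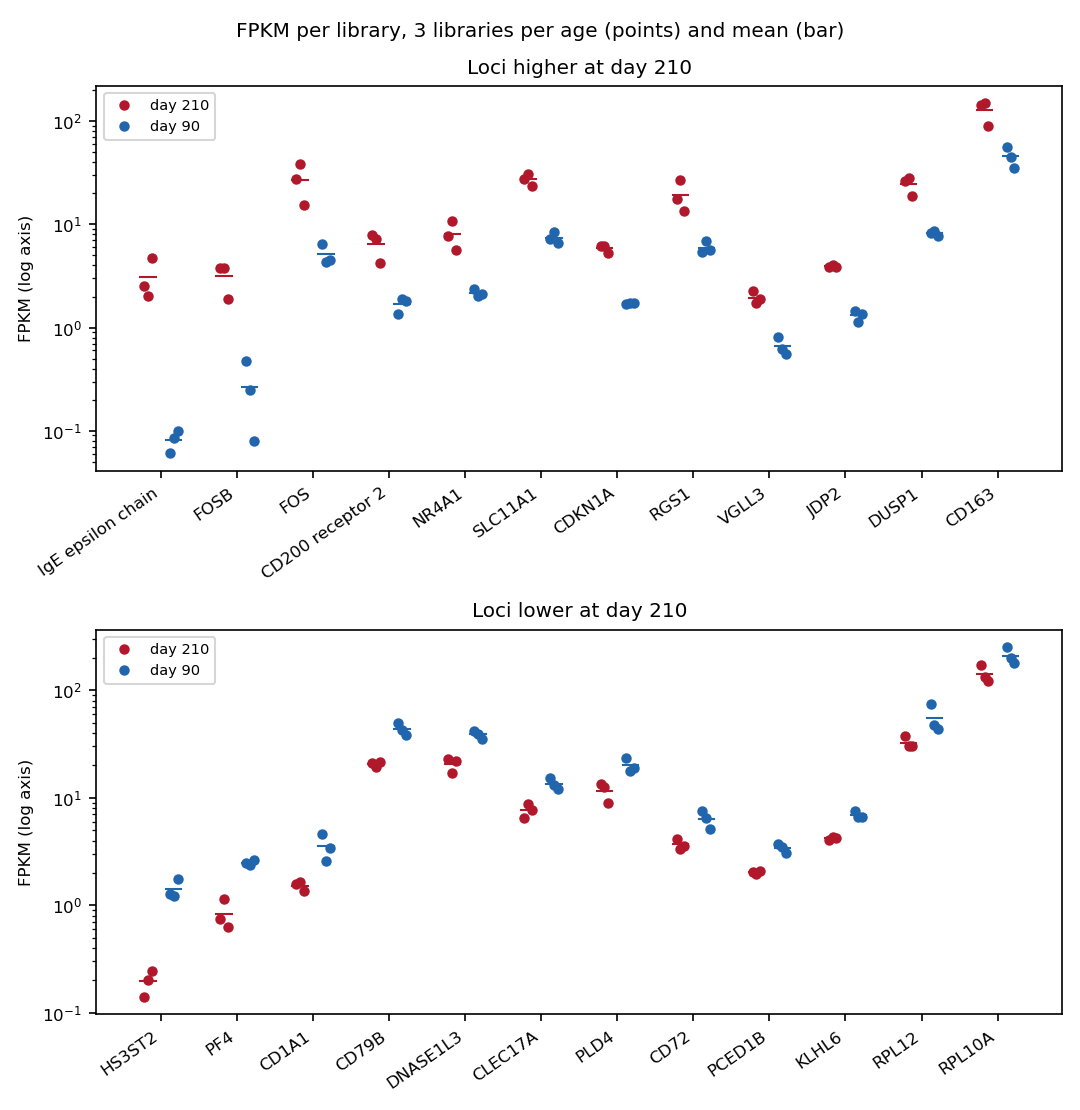
FPKM on a log axis of the 12 largest increases and 12 largest decreases among called loci with an informative description, with day 210 left of day 90 for each locus, points for libraries and bars for means of 3. Only loci that do not overlap between the ages were eligible. The IgE epsilon chain (2.04 to 4.70 against 0.0605 to 0.0996 FPKM) has the largest increase and HS3ST2 (0.141 to 0.243 against 1.23 to 1.76 FPKM) the largest decrease of those plotted.

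Several of the described loci that fell encode proteins of B cells. CD79B (MSTRG.15540, chromosome 12, 52292469 to 52295345), a signalling chain of the B cell antigen receptor, had 21.1, 19.1 and 21.6 FPKM in day 210 libraries, against 49.2, 42.7 and 38.4 FPKM in day 90 libraries. The ages were well apart, and the change of −1.22 ± 0.11 (adjusted p = 0.00710) kept its call without each library in turn, at an adjusted p of at most 0.0447. CD72 (MSTRG.162, chromosome 1, 17334850 to 17344862), a B cell coreceptor that dampens this signal, had 4.16, 3.36 and 3.55 FPKM in day 210 libraries, against 7.50, 6.46 and 5.13 FPKM in day 90 libraries. CD72 changed by −0.93 ± 0.14 (adjusted p = 0.0312), a call lost without day 210 replicate 1 or 2 or any day 90 library (adjusted p = 0.0672 to 0.139). CLEC17A (MSTRG.2714, chromosome 2, 88075408 to 88091249), a lectin of dividing germinal centre B cells in human, had 6.43, 8.79 and 7.68 FPKM in day 210 libraries, against 15.4, 13.2 and 12.04 FPKM in day 90 libraries. CLEC17A changed by −0.97 ± 0.15 (adjusted p = 0.0338), a call lost without day 210 replicate 1 or 2, day 30 replicate 2 or any day 90 library (adjusted p = 0.0501 to 0.141). KLHL6 (MSTRG.16538, chromosome 13, 99381402 to 99442151), an adaptor for protein degradation needed for germinal centres in mouse, had 4.01, 4.34 and 4.18 FPKM in day 210 libraries, against 7.59, 6.58 and 6.64 FPKM in day 90 libraries. KLHL6 changed by −0.88 ± 0.12 (adjusted p = 0.0231), a call lost without day 210 replicate 1 or 2 or any day 90 library (adjusted p = 0.0537 to 0.110). At day 30, 90 and 210 CLEC17A averaged 7.34, 13.5 and 7.63 FPKM and KLHL6 4.44, 6.94 and 4.18 FPKM, so that day 90 was their high age. CD79B and CD72 averaged 27.8 and 5.27 FPKM at day 30, between the other ages. CD40, the receptor through which T cells help B cells and named after its values were seen, changed by −0.65 ± 0.11 (adjusted p = 0.0415), a call lost without any day 210 library, day 30 replicate 2 or 3 or any day 90 library (adjusted p = 0.0565 to 0.147). All 4 matched B cell markers were lower with an unadjusted p under 0.05. Among them MS4A1, the surface protein CD20, was at 7.34, 7.25 and 6.63 FPKM in day 210 libraries, against 14.9, 12.5 and 13.96 FPKM in day 90 libraries, a change of −1.12 (adjusted p = 0.0568), and PAX5, a transcription factor of B cell identity, had a change of −0.98 without passing. The part of B cell number in these values was not tested.

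The largest decrease among described loci was that of HS3ST2 (MSTRG.5080, chromosome 3, 114875339 to 114984261), an enzyme that adds sulfate to heparan sulfate chains. It had 0.141, 0.204 and 0.243 FPKM in day 210 libraries, against 1.29, 1.23 and 1.76 FPKM in day 90 libraries. HS3ST2 changed by −3.03 ± 0.37 (adjusted p = 0.0203), a call lost without day 210 replicate 1 or 2 or day 90 replicate 2 or 3 (adjusted p = 0.0501 to 0.0957). Over day 30, 90 and 210 its means were 2.74 ± 0.927, 1.42 ± 0.290 and 0.196 ± 0.0517 FPKM. PF4 (MSTRG.11762, chromosome 8, 71384927 to 71392086), a chemokine of platelet granules, had 0.753, 1.13 and 0.626 FPKM in day 210 libraries, against 2.47, 2.37 and 2.61 FPKM in day 90 libraries. PF4 changed by −1.73 ± 0.23 (adjusted p = 0.0231), a call lost without day 210 replicate 1 or any day 90 library (adjusted p = 0.0591 to 0.1002). Its means were 9.29 ± 1.29, 2.48 ± 0.119 and 0.838 ± 0.264 FPKM at day 30, 90 and 210 (SD, n = 3 each), lower at each later age. The 3 matched platelet markers, PF4 among them, summed to 2.08 to 2.93 FPKM in day 210 libraries and 5.26 to 5.97 FPKM in day 90 libraries, and the part of platelets or megakaryocytes was not tested.

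CD1A1 (MSTRG.5898, chromosome 4, 78706396 to 78716961), which presents lipids and marks some dendritic cells and thymocytes, had 1.56, 1.65 and 1.36 FPKM in day 210 libraries, against 4.65, 2.61 and 3.403 FPKM in day 90 libraries. CD1A1 changed by −1.35 ± 0.22 (adjusted p = 0.0415), a call lost without any day 210 library, day 30 replicate 2 or any day 90 library (adjusted p = 0.0639 to 0.133). DNASE1L3 (MSTRG.15993, chromosome 13, 17699020 to 17716308), a secreted nuclease of macrophages and dendritic cells, had 22.7, 16.97 and 22.1 FPKM in day 210 libraries, against 41.98, 39.3 and 35.2 FPKM in day 90 libraries. DNASE1L3 changed by −1.07 ± 0.14 (adjusted p = 0.0231), a call lost without day 210 replicate 1 or any day 90 library (adjusted p = 0.0537 to 0.110). PLD4 (MSTRG.10104, chromosome 7, 26331983 to 26339333), an exonuclease of endosomes in dendritic and B cells, had 13.3, 12.6 and 8.85 FPKM in day 210 libraries, against 23.5, 17.7 and 18.7 FPKM in day 90 libraries. PLD4 changed by −0.94 ± 0.13 (adjusted p = 0.0264), a call lost without day 210 replicate 1 or 2 or any day 90 library (adjusted p = 0.0501 to 0.112). As the choice of loci required, both nucleases were below every day 90 library in all day 210 libraries. PCED1B (MSTRG.7413, chromosome 5, 76204165 to 76292561), an esterase-like protein, had 2.02, 1.96 and 2.08 FPKM in day 210 libraries, against 3.74, 3.48 and 3.09 FPKM in day 90 libraries. PCED1B changed by −0.92 ± 0.11 (adjusted p = 0.0188), a call lost without day 90 replicate 2 or 3 (adjusted p = 0.0782 to 0.0957). Ribosomal protein loci L12 and L10A also fell. L12 changed by −0.88 ± 0.15 (adjusted p = 0.0429), a call lost without any day 210 library, day 30 replicate 3 or any day 90 library (adjusted p = 0.0612 to 0.139). L10A changed by −0.71 ± 0.12 (adjusted p = 0.0415), a call lost without day 210 replicate 2 or 3, day 30 replicate 2 or 3 or any day 90 library (adjusted p = 0.0577 to 0.147). Their descriptions were shared by 5 and 4 loci, so reads may be split between copies and both are uncertain.

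Protein families were drawn by words of the deposited description. Of 67 families with at least 5 tested loci, 8 held a called member, and family medians of the log2 change ran from −0.60 to 0.36. Medians within 0.15 of 0 were found for 60 families, below −0.3 for 2 and above 0.3 for 1, beside a median of 0.00 over all tested loci. The sign of the median was kept under all 18 other settings by 18 of the 67 families. Among these settings, limma on log2(FPKM + 1) and log2(FPKM + 0.1) moved the median of all loci to 0.108 and 0.141. Small negative medians could turn positive by this shift alone, so the count does not measure how stable the families were. The largest family lay near 0: of 379 zinc finger proteins, mostly DNA-binding repressors, none was called, 13 were higher and 10 lower at an unadjusted p under 0.05 (3.43% and 2.64%, below the 7.75% and 6.35% of all loci), and the median was 0.03.

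**Figure D2:**
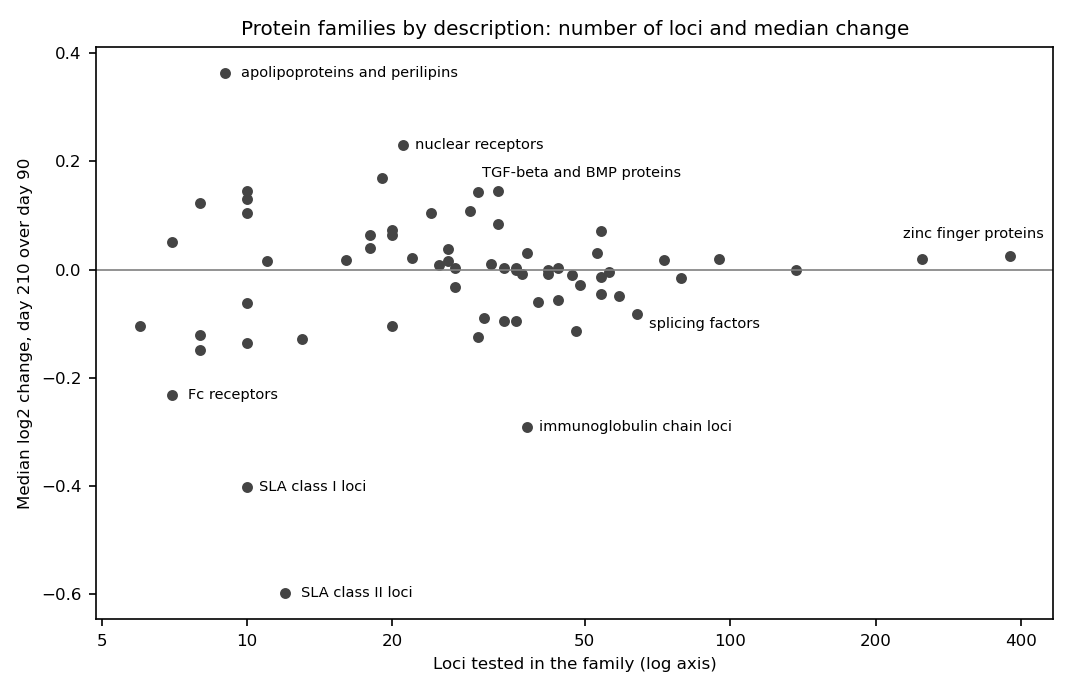
Median log2 change, day 210 over day 90, of 67 protein families (points) against the number of loci tested in each on a log axis, with a line at the median of all tested loci. Most points lie near 0, with SLA class II at −0.60, SLA class I (class II descriptions left out) at −0.40 and apolipoproteins and perilipins at 0.36 the farthest from it.

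SLA loci had the lowest medians, and none with a description passed the adjusted threshold. A locus without one (MSTRG.11227), whose gene model is named as a class II antigen, was called higher, as given with such loci. The class II wording took 12 tested loci, including the regulators CIITA and RFX1, which lie on other chromosomes. Of these 12, 10 were lower in day 210 libraries, with a median of −0.60. At an unadjusted p under 0.05, 8 were lower (66.7%, against 6.35% of all loci) and none higher. DESeq2 called 7 of the 12, all lower. It called far more loci than edgeR, 801 of the 19264 tested against 103, and 298 of the 801 were lower. MSTRG.11223 and MSTRG.11224, both among the 8, overlap each other and MSTRG.11227. Both also span MSTRG.11228 and MSTRG.11229, which are among the 12. Reads may be shared between these class II loci, so the 12 need not be separate observations. The beta chain of DM (MSTRG.11212, chromosome 7, 126649496 to 126654764), which loads peptides onto class II molecules, had 64.7, 53.4 and 47.3 FPKM in day 210 libraries, against 85.2, 72.3 and 63.8 FPKM in day 90 libraries. Its ages met only between the highest day 210 and the lowest day 90 library, with a change of −0.58 ± 0.11 (adjusted p = 0.0713). The alpha chain of DO (MSTRG.11207, chromosome 7, 126591805 to 126595917), which restrains DM, had 4.14, 5.01 and 3.0002 FPKM in day 210 libraries, against 7.23, 5.83 and 5.38 FPKM in day 90 libraries. DO alpha had a log2 change of −0.75 ± 0.16 (adjusted p = 0.0796) with no overlap. CIITA (MSTRG.4954, chromosome 3, 105149023 to 105207471), the master activator of class II genes, had 6.05, 6.82 and 6.92 FPKM in day 210 libraries, against 10.2, 8.18 and 7.32 FPKM in day 90 libraries. CIITA had a log2 change of −0.52 ± 0.13 (adjusted p = 0.114). An abundant class II locus (MSTRG.11230, chromosome 7, 127082662 to 127088183), named after its values were seen, had 440.3, 426 and 256 FPKM in day 210 libraries, against 714, 503 and 453 FPKM in day 90 libraries, also with no overlap, at −0.72 (adjusted p = 0.151). B cells carry much of the class II protein of the spleen, and their marker sums are given above; the part of B cell number here was not tested.

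Of 10 class I loci, counted with class II descriptions left out after the values were seen, 9 were lower. At an unadjusted p under 0.05, 4 of the 10 were lower (40%, against 6.35% of all loci), and the median was −0.40. By limma on log2(FPKM + 1) this median was −0.20, where that of all loci was 0.108. A locus merging several class I gene models (MSTRG.11328, chromosome 7, 128466302 to 128712109) had 61.8, 51.5 and 50.9 FPKM in day 210 libraries, against 113, 83.6 and 77.4 FPKM in day 90 libraries. This locus had a log2 change of −0.88 ± 0.19 (adjusted p = 0.0791). Another class I locus (MSTRG.22590, Scaffold3265, 3982 to 25310) had 17.7, 19.9 and 24.0 FPKM in day 210 libraries, against 39.6, 27.7 and 33.5 FPKM in day 90 libraries. Its log2 change was −0.85 ± 0.20 (adjusted p = 0.110). In both the ages did not overlap, as was so for 16.1% of all tested loci. The single class I locus with a positive change (MSTRG.11384), named after its values were seen, had 5.51, 4.89 and 6.34 FPKM in day 210 libraries, against 6.29, 1.19 and 0.884 FPKM in day 90 libraries. MSTRG.11384 overlapped between the ages, with a log2 change of 0.99 ± 0.55 (adjusted p = 0.471). TAP1 (MSTRG.11216, chromosome 7, 126702048 to 126711942), which pumps peptides to class I molecules, had 31.0, 24.95 and 32.0 FPKM in day 210 libraries, against 52.7, 35.5 and 34.6 FPKM in day 90 libraries, at −0.61 (adjusted p = 0.145). Class I loci resemble each other in sequence, so reads may be split between them and single loci are uncertain.

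Antibody and T cell receptor loci did not move as one. Among 38 immunoglobulin chain loci, a list that by its wording misses the IgE locus, none was called. At an unadjusted p under 0.05, 8 were lower (21.1%, against 6.35% of all loci) and 1 higher (2.63%, against 7.75%). The median of −0.29 lay at −0.02 without day 90 replicate 3 and −0.42 without day 90 replicate 2. One kappa variable locus (MSTRG.22311), whose description 40 loci share, had 14.3, 9.97 and 13.5 FPKM in day 210 libraries, against 25.4, 14.3 and 24.7 FPKM in day 90 libraries. MSTRG.22311 had a log2 change of −0.92 ± 0.22 (adjusted p = 0.103), and its highest day 210 and lowest day 90 libraries were nearly level. The IgG heavy chain locus (MSTRG.22272), named after its values were seen, had 83.2, 70.6 and 267 FPKM in day 210 libraries, against 112, 42.2 and 36.9 FPKM in day 90 libraries, with 1 high library at day 210, and a log2 change of 1.11 (adjusted p = 0.397). T cell receptor chains, 18 loci, had a median of 0.06 with none past an unadjusted p of 0.05 in either direction.

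Fc receptors and their relatives pointed both ways within 7 loci. FCRLA (MSTRG.5845, chromosome 4, 75469754 to 75479700), an intracellular relative found in B cells, had 3.50, 3.73 and 2.99 FPKM in day 210 libraries, against 6.08, 5.50 and 5.50 FPKM in day 90 libraries. FCRLA had a log2 change of −0.90 ± 0.16 (adjusted p = 0.0516), just short of the threshold. FCRL1 (MSTRG.5906, chromosome 4, 79277557 to 79295834), a B cell surface activator, went the other way with 4.96, 5.72 and 6.78 FPKM in day 210 libraries, against 2.71, 2.82 and 2.41 FPKM in day 90 libraries. FCRL1 had a log2 change of 0.98 ± 0.21 (adjusted p = 0.0796). It lies in the same part of chromosome 4 as FCRL4 (MSTRG.5908, chromosome 4, 79405963 to 79429172). FCRL4, an inhibitory receptor of memory B cells in human, had 5.98, 7.88 and 7.10 FPKM in day 210 libraries, against 12.7, 9.06 and 13.3 FPKM in day 90 libraries. FCRL4 had a log2 change of −0.90 ± 0.28 (adjusted p = 0.205). None of the 3, chosen by smallest unadjusted p, overlapped between the ages, a trait of 16.1% of all tested loci. None was called. At an unadjusted p under 0.05, 1 locus was higher and 2 lower, beside 7.75% and 6.35% of all loci. The median of −0.23 was 0.006 without day 210 replicate 3. FCRL1 was thus higher where CD79B, CD72 and MS4A1 were lower.

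**Figure D3:**
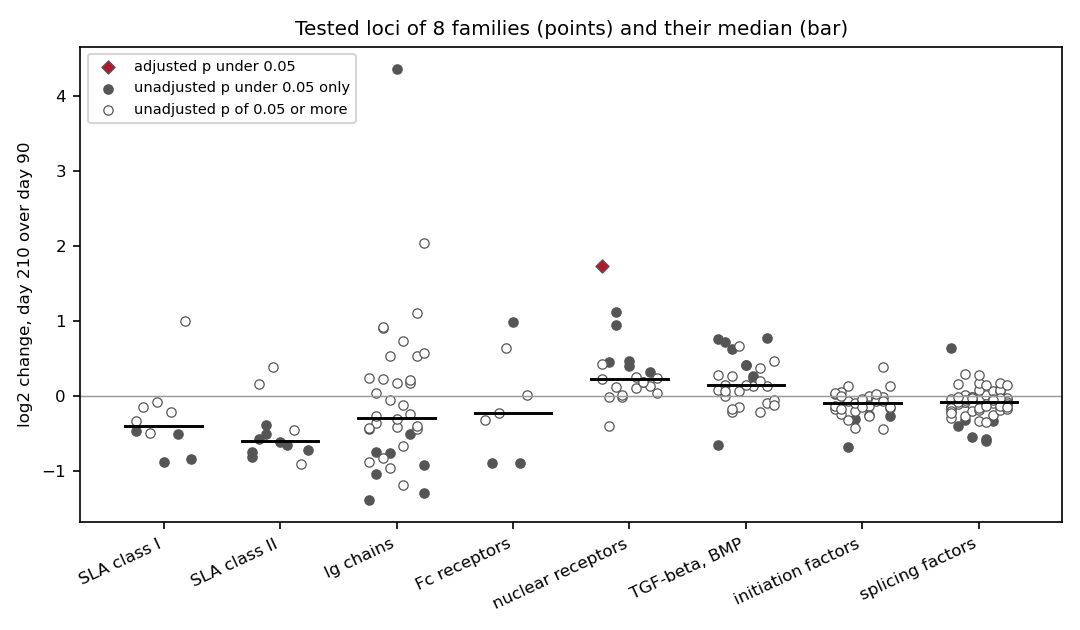
Log2 change, day 210 over day 90, of each tested locus (points) of 8 families with the family median (bar); a red diamond marks an adjusted p under 0.05, a filled point an unadjusted p under 0.05 and an open point a higher one. NR4A1 at 1.73 is the single diamond, while 8 of 12 SLA class II loci are filled points below 0 and Ig chains spread from −1.39 to 4.37.

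Nuclear receptors, which bind hormones, lipids or no known ligand and act on DNA, had the highest share of positive changes and the highest median among families of 20 or more tested loci. The wording took 21 loci, among them a coactivator, both retinoic acid receptor responder proteins and a merged locus that holds LXR-alpha. Of these 21, 18 were higher, 7 (33.3%, against 7.75% of all loci) at an unadjusted p under 0.05 and none lower at that level, and the median was 0.23, between 0.19 and 0.37 under other settings. NR4A1 was the called member. NR4A2 (MSTRG.18868, chromosome 15, 64813491 to 64822005), a paralogue of NR4A1, had 1.77, 3.99 and 1.80 FPKM in day 210 libraries, against 1.36, 1.20 and 0.966 FPKM in day 90 libraries. NR4A2 had a log2 change of 0.95 ± 0.29 (adjusted p = 0.191), with 1 high library. The mineralocorticoid receptor (MSTRG.11843, chromosome 8, 81721655 to 82101964) had 4.56, 5.17 and 4.07 FPKM in day 210 libraries, against 2.97, 3.08 and 2.82 FPKM in day 90 libraries. The receptor had a log2 change of 0.47 ± 0.14 (adjusted p = 0.174). NR1D2 (MSTRG.22172, Scaffold164, 4101868 to 4132987), a clock repressor, had 16.8, 16.1 and 13.8 FPKM in day 210 libraries, against 12.1, 10.6 and 9.10 FPKM in day 90 libraries. NR1D2 had a log2 change of 0.40 ± 0.13 (adjusted p = 0.226). RXR-alpha, the common partner of many of these receptors, had a change of 0.32 (adjusted p = 0.266) and overlapped between the ages. NR4A2, the mineralocorticoid receptor and NR1D2 did not overlap, as was so for 16.1% of all tested loci. NR4A2, NR1D2 and RXR-alpha were named after their values were seen. The coactivator in the list, of smaller unadjusted p than these, had a log2 change of 0.45 ± 0.13 (adjusted p = 0.174).

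Of 30 loci of the TGF-beta and BMP pathway 21 were positive, none was called, and the median was 0.14. At an unadjusted p under 0.05, 8 were higher (26.7%, against 7.75% of all loci) and 1 lower (3.33%, against 6.35%). The inhibitory SMAD6 (MSTRG.748, chromosome 1, 118886559 to 118964159), made in response to BMP, had 4.84, 6.11 and 4.13 FPKM in day 210 libraries, against 2.94, 2.64 and 2.33 FPKM in day 90 libraries. SMAD6 had a log2 change of 0.78 ± 0.18 (adjusted p = 0.0984). SMAD9, which carries the BMP signal, had 3.36, 4.03 and 2.85 FPKM at day 210, against 1.52, 1.75 and 2.02 FPKM at day 90. SMAD9 had a log2 change of 0.76 ± 0.23 (adjusted p = 0.180). The ligand TGFB3 had 3.07, 1.93 and 2.05 FPKM at day 210, against 1.83, 1.05 and 1.05 FPKM at day 90. TGFB3 had a log2 change of 0.71 ± 0.23 (adjusted p = 0.217). The inhibitory SMAD7 had 5.69, 6.78 and 6.49 FPKM at day 210, against 5.46, 4.04 and 3.48 FPKM at day 90. SMAD7 had a log2 change of 0.42 ± 0.14 (adjusted p = 0.234). In contrast the type 1 receptor TGFBR1 (MSTRG.86, chromosome 1, 12767711 to 12827506) had 2.84, 3.04 and 1.93 FPKM in day 210 libraries, against 4.22, 3.36 and 3.43 FPKM in day 90 libraries. TGFBR1 had a log2 change of −0.65 ± 0.16 (adjusted p = 0.110). All 5 separated the ages, as did 16.1% of all tested loci, and they were those of smallest unadjusted p in the list. TGFB3 and SMAD7 were named after their values were seen. Other transcription families showed single loci: Helios, a zinc finger protein of lymphocytes, had a change of −0.78 ± 0.20 (adjusted p = 0.126), and the homeobox genes HOXB8 and HOXB2, both on chromosome 12, of −0.75 ± 0.24 (adjusted p = 0.217) and 0.62 ± 0.21 (adjusted p = 0.233).

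Families of RNA handling and translation had medians slightly below 0. Of 64 splicing factors 49 were lower with a median of −0.08, of 36 translation initiation factors 28 with −0.09, of 34 aminoacyl tRNA synthetases 26 with −0.09, and of 48 ribosome biogenesis proteins 31 with −0.11. None held a called locus, and an unadjusted p under 0.05 was reached by 6, 3, 1 and 5 lower loci (9.38%, 8.33%, 2.94% and 10.4%), beside 6.35% of all loci. These medians were positive by limma on log2(FPKM + 0.1), at 0.07, 0.06, 0.05 and 0.04, where that of all loci was 0.141. SRSF5 (MSTRG.10435, chromosome 7, 58575055 to 58583812), a splicing factor, went against its family with 12.7, 11.97 and 8.07 FPKM in day 210 libraries, against 7.65, 5.51 and 5.72 FPKM in day 90 libraries. SRSF5 had a log2 change of 0.64 ± 0.14 (adjusted p = 0.0797). IGF2BP3 (MSTRG.12556, chromosome 9, 46190009 to 46357438), an mRNA-binding protein of fetal tissues, had 1.45, 0.636 and 0.993 FPKM in day 210 libraries, against 3.13, 1.56 and 2.32 FPKM in day 90 libraries. IGF2BP3 had a log2 change of −1.32 ± 0.28 (adjusted p = 0.0796). Tryptophanyl tRNA synthetase, which interferon induces, had a change of −0.61 ± 0.16 (adjusted p = 0.139).

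In signalling families, beside 0.535% called of all loci, DUSP1 and PPP1R15A were called among 73 loci drawn as phosphatase subunits. The words of that list also take dual specificity phosphatases such as DUSP1, which are not subunits. RGS1 was called among 37 G protein and RGS loci, and MERTK among 34 tyrosine kinases. DUSP10, which acts on stress-activated MAP kinases, had 3.15, 3.28 and 2.91 FPKM at day 210, against 1.36, 1.60 and 0.994 FPKM at day 90. DUSP10 had a log2 change of 1.078 ± 0.19 (adjusted p = 0.0521). RGS2, next to RGS1 on chromosome 10, had 8.08, 5.16 and 4.48 FPKM at day 210, against 2.42, 2.49 and 2.37 FPKM at day 90. RGS2 had a log2 change of 1.10 ± 0.29 (adjusted p = 0.133). BTK, the kinase below the B cell receptor, had a change of −0.52 ± 0.12 (adjusted p = 0.0980), and FGFR1, a growth factor receptor, one of 0.57 ± 0.13 (adjusted p = 0.0984). Semaphorin-5A, a guidance protein, had 1.07, 0.578 and 1.01 FPKM at day 210, against 2.29, 1.28 and 1.47 FPKM at day 90. SEMA5A had a log2 change of −1.05 ± 0.24 (adjusted p = 0.0980). EPHA2, a receptor for ephrins, had 5.49, 3.32 and 4.07 FPKM at day 210, against 2.70, 2.52 and 2.23 FPKM at day 90. EPHA2 had a log2 change of 0.62 ± 0.17 (adjusted p = 0.145).

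Caspases and BCL2 proteins, which set the balance of cell death, gave single loci in both directions, none past the adjusted threshold. Of 25 loci 6 (24%, against 6.35% of all loci) were lower at an unadjusted p under 0.05 and 2 (8%, against 7.75%) higher. The median of the 25 was 0.01. BMF (MSTRG.808, chromosome 1, 125037159 to 125062656), which promotes death by binding BCL2 proteins, had 3.58, 3.96 and 1.72 FPKM in day 210 libraries, against 8.85, 6.38 and 5.29 FPKM in day 90 libraries. BMF had a log2 change of −1.29 ± 0.24 (adjusted p = 0.0584). BCL2 itself (MSTRG.699, chromosome 1, 112455998 to 112631546), which protects cells, had 12.5, 12.2 and 13.4 FPKM in day 210 libraries, against 8.44, 7.65 and 7.72 FPKM in day 90 libraries. BCL2 had a log2 change of 0.52 ± 0.15 (adjusted p = 0.161). In both genes the ages did not overlap, in opposite directions, beside 16.1% of all tested loci without overlap. BCL2L14 had 2.04, 2.37 and 1.65 FPKM at day 210, against 3.92, 2.47 and 2.91 FPKM at day 90. BCL2L14 had a log2 change of −0.75 ± 0.21 (adjusted p = 0.155). Among 79 F-box, kelch and cullin proteins KLHL6 was the called member, with 4 lower (5.06%) and 1 higher (1.27%) at an unadjusted p under 0.05, against 6.35% and 7.75% of all loci.

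Matrix, membrane and metabolic families held single loci near the threshold. A collagen alpha-1(III)-like locus (MSTRG.11142, chromosome 7, 120278358 to 120279284), whose description 4 loci share, had 3.61, 3.13 and 3.98 FPKM in day 210 libraries, against 0.508, 1.18 and 0.646 FPKM in day 90 libraries. The ages did not overlap, but the locus missed the threshold (adjusted p = 0.0908). Collagen alpha-4(IV), of basement membranes, had a change of −0.54 ± 0.11 (adjusted p = 0.0760). Among tetraspanins TSPAN33, found on B cells and red cell precursors, had 2.82, 3.36 and 3.62 FPKM at day 210, against 4.67, 5.14 and 5.64 FPKM at day 90. TSPAN33 had a log2 change of −0.83 ± 0.20 (adjusted p = 0.107). ABCA3, a lipid transporter of lamellar bodies in the lung, had 2.04, 1.92 and 2.99 FPKM at day 210, against 4.64, 3.81 and 3.53 FPKM at day 90. ABCA3 had a log2 change of −0.92 ± 0.19 (adjusted p = 0.0760). Transmembrane protein 100, of blood vessels, had 2.32, 3.05 and 2.07 FPKM at day 210, against 1.20, 0.748 and 0.903 FPKM at day 90. TMEM100 had a log2 change of 1.23 ± 0.23 (adjusted p = 0.0557). AP1S2, a subunit of the AP-1 coat complex on vesicles, had 3.90, 3.79 and 2.44 FPKM at day 210, against 6.09, 4.79 and 4.37 FPKM at day 90. AP1S2 had a log2 change of −0.74 ± 0.15 (adjusted p = 0.0730). Enzymes of fat metabolism included ALDH3A2, which oxidises fatty aldehydes, at 0.50 ± 0.09 (adjusted p = 0.0568), and ACSS3, a mitochondrial acyl-CoA synthetase, at 0.81 ± 0.17 (adjusted p = 0.0796). The 9 apolipoprotein and perilipin loci had the highest median, 0.36, which ran from 0.007 without day 210 replicate 3 to 0.52 without day 210 replicate 1. APOA1, the main protein of HDL, had 27.2, 29.6 and 30.9 FPKM at day 210, against 19.1, 20.1 and 16.0 FPKM at day 90. APOA1 had a log2 change of 0.51 ± 0.18 (adjusted p = 0.239).

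Called loci were spread over the genome, and chromosome medians lay between −0.02 and 0.03. Beside 0.535% called of all tested loci, chromosome 7 held 14 called of 1301 tested (1.076%), 11 of them higher. Chromosome 3 held 11 of 1295 (0.849%), chromosome 13 held 10 of 1224 (0.817%) and chromosome 16 held 6 of 438 (1.37%). Loci that overlap each other, as in the runs below, were counted separately. Chromosome X held 1 of 580 (0.172%) and chromosome 17 held 1 of 525 (0.190%). Runs of at least 3 called loci of 1 direction, with starts within 500000 bases of each other, numbered 4. In each, the loci lay within 1 spanning locus or carried 1 gene model name, so they need not be separate genes.

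In 3 of the 4 runs the loci were higher at day 210. On chromosome 3, within 78336217 to 78475202, lay a locus described as KIAA1211-like (MSTRG.4479, chromosome 3, 78336217 to 78475202) with 5.80, 5.76 and 4.67 FPKM in day 210 libraries, against 2.31, 1.77 and 1.99 FPKM in day 90 libraries. MSTRG.4479 changed by 1.26 ± 0.20 (adjusted p = 0.0415), a call lost without any day 210 library or any day 90 library (adjusted p = 0.0535 to 0.149). Inside its span lay MSTRG.4480, with 4.66, 4.14 and 2.77 FPKM at day 210, against 1.47, 0.956 and 0.923 FPKM at day 90. MSTRG.4480 changed by 1.65 ± 0.23 (adjusted p = 0.0270), a call lost without day 210 replicate 1 or 2 or any day 90 library (adjusted p = 0.0671 to 0.127). Also inside that span, on the strand of MSTRG.4479, MSTRG.4481 had 3.34, 3.19 and 2.31 FPKM at day 210, against 1.23, 0.777 and 0.824 FPKM at day 90. MSTRG.4481 changed by 1.501 ± 0.17 (adjusted p = 0.0188), a call lost without any day 90 library (adjusted p = 0.0591 to 0.0957). MSTRG.4479 spans both MSTRG.4480 and MSTRG.4481, so their reads may be shared. On chromosome 7, within 58407716 to 58455625, 3 loci carried the gene model name of SMOC1, a matricellular calcium-binding protein. MSTRG.10430 had 8.68, 7.37 and 8.64 FPKM in day 210 libraries, against 3.03, 2.12 and 2.58 FPKM in day 90 libraries. MSTRG.10430 changed by 1.53 ± 0.13 (adjusted p = 0.00465), called without each library in turn. MSTRG.10429 had 10.7, 10.1 and 8.56 FPKM in day 210 libraries, against 3.39, 2.27 and 3.38 FPKM in day 90 libraries. MSTRG.10429 changed by 1.54 ± 0.17 (adjusted p = 0.0169), a call lost without day 90 replicate 1 or 2 (adjusted p = 0.0503 to 0.0591). MSTRG.10431 changed by 1.301 ± 0.21 (adjusted p = 0.0415), a call lost without any day 210 library, any day 30 library or day 90 replicate 1 or 2 (adjusted p = 0.0531 to 0.144). The described SMOC1 locus spans all 3 and had a change of 0.91 without passing. MSTRG.10430 and MSTRG.10431 lie on the opposite strand to it and MSTRG.10429 on the same, and reads of these loci cannot be told apart.

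On chromosome 13, within 169346822 to 169610326, 3 loci opposite the described APP locus, the amyloid precursor protein, were higher. MSTRG.16930 had 1.76, 1.78 and 1.45 FPKM in day 210 libraries, against 0.614, 0.452 and 0.362 FPKM in day 90 libraries. MSTRG.16930 changed by 1.66 ± 0.25 (adjusted p = 0.0312), a call lost without day 210 replicate 1 or 2 or any day 90 library (adjusted p = 0.0713 to 0.134). MSTRG.16937 changed by 0.89 ± 0.14 (adjusted p = 0.0405), a call lost without day 210 replicate 1 or 2, day 30 replicate 2 or 3 or any day 90 library (adjusted p = 0.0565 to 0.149). MSTRG.16938 changed by 0.86 ± 0.14 (adjusted p = 0.0427), a call lost without day 210 replicate 1 or 2, any day 30 library or any day 90 library (adjusted p = 0.0531 to 0.163). Described APP had a change of 0.32 without passing, and its reads and those of the loci opposite it cannot be told apart. The single run of lower loci lay on chromosome 5, within 87374178 to 87490573, and had no gene name. MSTRG.7509 changed by −0.80 ± 0.12 (adjusted p = 0.0315), a call lost without day 210 replicate 1 or 2 or any day 90 library (adjusted p = 0.0768 to 0.123). MSTRG.7510 changed by −0.92 ± 0.13 (adjusted p = 0.0308), a call lost without day 210 replicate 1 or 2 or any day 90 library (adjusted p = 0.0672 to 0.134). MSTRG.7511 changed by −0.93 ± 0.15 (adjusted p = 0.0419), a call lost without any day 210 library, any day 30 library or any day 90 library (adjusted p = 0.0565 to 0.160). MSTRG.7509 spans the other two, so their reads may be shared.

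Loci with no protein description made up 61 of the 103 called (59.2%), against 45.0% of those tested, 38 of them higher and 23 lower. A gene model name was given for 28, 9 of these through the circRNA table. Of the 61, 29 overlapped a described locus, 23 on the opposite strand, 4 on the same and 2 with no strand given. The overlapped described locus had the same sign in 25 of 29 cases and was called in none. Since strand use in counting was not stated, reads of the pairs cannot be told apart.

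**Figure D4:**
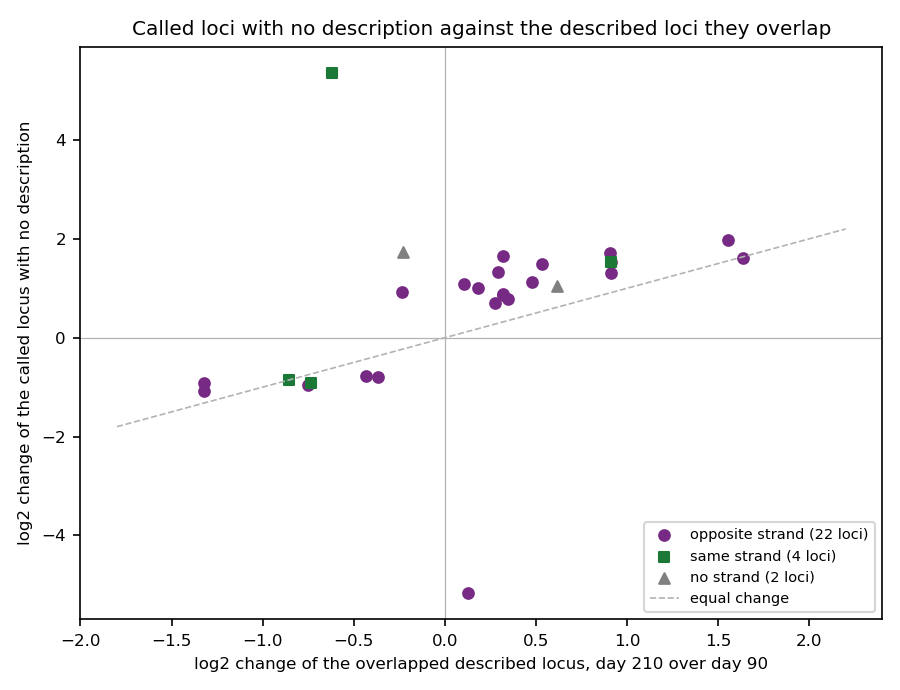
Log2 change, day 210 over day 90, of called loci with no description against that of the described locus each overlaps, for 28 of 29 such loci, as MSTRG.22275 had only 2 reads at day 90. The dashed line marks equal change, and 25 of the 29 pairs share a sign, with MSTRG.11227 at 5.36 against −0.62 and MSTRG.12097 at −5.17 against 0.13 among the exceptions.

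The 2 largest decreases of any called locus, MSTRG.12097 and MSTRG.1030, lacked a description. MSTRG.12097 (chromosome 8, 123517040 to 123524975), opposite the described EIF4E locus of the cap-binding protein, had 0.0585, 0.0319 and 0.0896 FPKM in day 210 libraries, against 2.57, 1.85 and 1.68 FPKM in day 90 libraries. MSTRG.12097 changed by −5.17 ± 0.32 (adjusted p = 0.000351). Against these, it had 1.89, 2.17 and 2.84 FPKM in day 30 libraries, and EIF4E itself had a change of 0.13 without passing. MSTRG.1030 (chromosome 1, 145492271 to 145582319), with a gene model named ROR-alpha-like, had 0.0746, 0.0901 and 0.0921 FPKM in day 210 libraries, against 1.77, 1.44 and 1.62 FPKM in day 90 libraries. MSTRG.1030 changed by −4.38 ± 0.20 (adjusted p = 4.26e-05). It had 2.30, 2.58 and 3.57 FPKM in day 30 libraries. Both calls held without each library in turn. MSTRG.19216 (chromosome 15, 120566575 to 120567047), 3901 bases from the locus of IGFBP5, had 1.48, 1.69 and 2.23 FPKM in day 210 libraries, against 12.5, 9.13 and 7.51 FPKM in day 90 libraries. MSTRG.19216 changed by −2.54 ± 0.33 (adjusted p = 0.0231), a call lost without day 210 replicate 1 or 2 or any day 90 library (adjusted p = 0.0629 to 0.0957). MSTRG.13943 (chromosome 10, 72323106 to 72324482), 270 bases from ARID3C and with no strand, had 0.414, 0.681 and 0.515 FPKM in day 210 libraries, against 2.27, 2.18 and 2.34 FPKM in day 90 libraries. MSTRG.13943 changed by −2.23 ± 0.35 (adjusted p = 0.0405), a call lost without any day 210 library or any day 90 library (adjusted p = 0.0666 to 0.138).

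Increases of like size were less even between libraries. A locus near 0 at day 90 could pass the filter only by being high at another age. MSTRG.11227 (chromosome 7, 126832060 to 126956442), with a gene model named as a class II antigen, had 40.1, 53.2 and 8.77 FPKM in day 210 libraries, against 0.771, 0.948 and 0.415 FPKM in day 90 libraries. MSTRG.11227 changed by 5.36 ± 0.71 (adjusted p = 0.0233), a call lost without day 210 replicate 1 or any day 90 library (adjusted p = 0.0501 to 0.112). Day 30 libraries held 59.7, 29.6 and 24.9 FPKM, so that day 90 was the low age, and the described class II locus it overlaps on the same strand had a change of −0.62. MSTRG.22275 (Scaffold1928, 5723 to 48870), opposite an IgG heavy chain locus, had 363, 200 and 2338 reads in day 210 libraries, against 0, 2 and 0 reads in day 90 libraries (adjusted p = 0.0403), a call lost without day 210 replicate 1 or any day 90 library (adjusted p = 0.0501 to 0.164). The summed reads were 2901 at day 210 and 2 at day 90. Scaled to the gene counts of each age, their ratio was 1514, with an exact 95% interval of 419 to 12504 for counting error only. MSTRG.22925 (Scaffold5092, 10286 to 11430) had 3.02, 2.21 and 1.07 FPKM in day 210 libraries, against 0.0849, 0.0407 and 0.103 FPKM in day 90 libraries. MSTRG.22925 changed by 4.49 ± 0.70 (adjusted p = 0.04004), a call lost without day 210 replicate 1 or 2, day 30 replicate 2 or any day 90 library (adjusted p = 0.0523 to 0.144). MSTRG.21099 (chromosome X, 4124677 to 4127776) had 1.33, 2.29 and 2.14 FPKM in day 210 libraries, against 0.126, 0.220 and 0.278 FPKM in day 90 libraries. MSTRG.21099 changed by 2.99 ± 0.51 (adjusted p = 0.0451), a call lost without any day 210 library, day 30 replicate 3 or any day 90 library (adjusted p = 0.0577 to 0.157).

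Among loci named by their gene model alone, all named here after their values were seen, several are known from B cells. MSTRG.9306, with the model of CD22, an inhibitory coreceptor, had 8.07, 8.04 and 9.20 FPKM at day 210, against 14.7, 14.3 and 12.7 FPKM at day 90. MSTRG.9306 changed by −0.87 ± 0.14 (adjusted p = 0.0415), a call lost without day 210 replicate 1 or 2, day 30 replicate 2 or 3 or any day 90 library (adjusted p = 0.0531 to 0.147). MSTRG.19488, with the model of COE1 (EBF1), a transcription factor of B cell identity, had 3.30, 3.45 and 3.44 FPKM at day 210, against 7.14, 5.84 and 4.98 FPKM at day 90. MSTRG.19488 changed by −0.96 ± 0.11 (adjusted p = 0.0188), a call lost without any day 90 library (adjusted p = 0.0612 to 0.0957). It lies on the strand opposite the described COE1 locus, which had a change of −0.75 that did not pass, and their reads cannot be told apart. MSTRG.4187, on the same strand as the BCL11A locus of a lymphoid zinc finger factor, changed by −0.85 ± 0.15 (adjusted p = 0.0460), a call lost without any day 210 library, day 30 replicate 2 or any day 90 library (adjusted p = 0.0642 to 0.160). MSTRG.18191, opposite the BLNK locus of a B cell receptor adaptor, changed by −0.77 ± 0.13 (adjusted p = 0.0429), a call lost without any day 210 library, day 30 replicate 2 or 3 or any day 90 library (adjusted p = 0.0566 to 0.160). Rising loci included MSTRG.7900, opposite the IL12RB2 locus of an interleukin-12 receptor chain, with 2.45, 3.92 and 4.46 FPKM at day 210, against 1.01, 0.673 and 0.845 FPKM at day 90. MSTRG.7900 changed by 1.97 ± 0.29 (adjusted p = 0.0308), a call lost without day 210 replicate 2 or any day 90 library (adjusted p = 0.0871 to 0.138). MSTRG.14991, with the model of SSH2, a phosphatase that activates cofilin, had 13.7, 11.98 and 12.05 FPKM at day 210, against 7.002, 5.35 and 4.76 FPKM at day 90. MSTRG.14991 changed by 1.001 ± 0.14 (adjusted p = 0.0254), a call lost without day 210 replicate 1 or 2 or any day 90 library (adjusted p = 0.0565 to 0.119). One locus with neither description nor name (MSTRG.11234, chromosome 7, 127011778 to 127016391) between class II loci had 4.603, 7.84 and 4.06 FPKM in day 210 libraries, against 22.9, 18.5 and 15.7 FPKM in day 90 libraries. MSTRG.11234 changed by −1.93 ± 0.29 (adjusted p = 0.0312), a call lost without day 210 replicate 1 or 3, day 30 replicate 2 or any day 90 library (adjusted p = 0.0515 to 0.119).

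CircRNAs, joined head to tail by back-splicing, were counted by the reads over their junction. Per 1 M gene counts the junction reads were 248, 229 and 224 in day 210 libraries, against 257, 274 and 235 in day 90 libraries, means of 233 ± 12.7 and 255 ± 19.7 (SD, n = 3 each). The ages overlapped, with p = 0.2 by a two-sided exact permutation test whose smallest possible p is 0.1. The number of circRNAs seen was 4043 ± 725 at day 210 and 4557 ± 482 at day 90 (exact permutation p = 0.3). Of 18908 circRNAs 2748 were seen in at least 4 of 9 libraries and tested, with a median of 3.26 reads per library and 33.9% of values at 0, so small differences were not detectable at this depth.

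Of the 2748 tested circRNAs 5 (0.182%) were called by edgeR, 2 higher and 3 lower, and 146 (5.31%) had an unadjusted p under 0.05. DESeq2 called none. The most abundant of the 5, ciRNA145, from an intron on chromosome 10 (1913538 to 1919786), had 2, 0 and 0 reads in day 210 libraries, against 0, 0 and 163 reads in day 90 libraries, and 147, 161 and 141 reads at day 30. It was thus at day 30 levels in day 90 replicate 3 and near 0 in the other 5 libraries (adjusted p = 1.16e-12, and 0.916 without day 90 replicate 3). CircRNA3443 (chromosome 10, 1875285 to 2006329), whose ends enclose it, had 0, 0 and 0 reads in day 210 libraries, against 0, 0 and 21 reads in day 90 libraries, and 13, 13 and 21 reads at day 30 (adjusted p = 0.00200, and 1 without day 90 replicate 3).

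The other 3 also rested on few libraries. CircRNA3363 (chromosome 6, 113890700 to 113976909) had 18, 21 and 80 reads in day 210 libraries, against 0, 0 and 18 reads in day 90 libraries (adjusted p = 0.000179, and 0.613 without day 210 replicate 3). CircRNA3306 (chromosome 4, 115111453 to 115289156) had 0, 0 and 15 reads in day 210 libraries, against 0, 0 and 0 reads in day 90 libraries (adjusted p = 0.00850, and 1 without day 210 replicate 3). CircRNA3435 (chromosome 10, 17241 to 17550) had 0, 0 and 0 reads in day 210 libraries, against 13, 8 and 0 reads in day 90 libraries (adjusted p = 0.00492, and 0.344 without day 90 replicate 1). Of the 5 called circRNAs 4 were intergenic, a class of 355 of the 2748 tested.

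**Figure D5:**
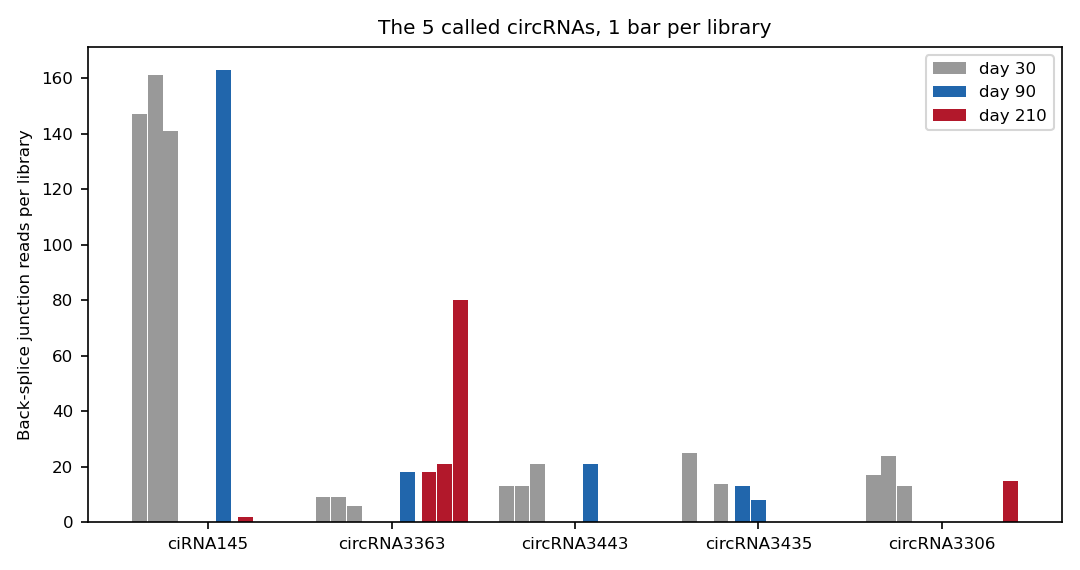
Back-splice junction reads of the 5 called circRNAs, 1 bar per library, in the order day 30, day 90 and day 210. In ciRNA145 the 3 day 30 libraries (141 to 161 reads) and day 90 replicate 3 (163 reads) stand against 0 to 2 reads elsewhere, and in circRNA3363 day 210 replicate 3 has 80 reads.

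The circRNAs of the highest mean did not differ beyond their spread. CircRNA3565 (chromosome 16, 6840714 to 6845508) had 261, 252 and 377 reads in day 210 libraries, against 423, 268 and 247 reads in day 90 libraries. CircRNA3602 on Scaffold1928 had 145, 169 and 419 reads at day 210, against 543, 0 and 201 reads at day 90. CircRNA2653 of an ADGRE2-like gene had 146, 147 and 122 reads at day 210, against 56, 175 and 115 reads at day 90, and circRNA641 of exportin-4 had 96, 73 and 97 reads, against 113, 124 and 96 reads. All 4 had an adjusted p of 0.999. Of 70 called gene loci with a gene model 27 hosted 68 circRNAs, 6 of which were tested and none called, the lowest unadjusted p being 0.0193 for one of SSH2.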

How the data were processed

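RNA-seq of spleen from 9 Ningxiang pig libraries, 3 per age, was deposited as raw read counts and FPKM per locus in 1 table, and as junction read counts and a normalised signal per circRNA in another, both made by the authors; the signal was not used. The submitters' processing notes name Bowtie 0.12.2, HISAT2 2.0 and StringTie 1.3.0 and a mouse build, although the coordinates span pig chromosomes, so the build is not certain. Neither the counting tool, its use of strand nor the tool that called circRNAs is named: not given in the sources used here. The labels' protocol names poly-T beads and also a poly(A)-depleted fraction, so the library type is unclear, which bears on circRNAs and loci with no description.

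Loci with a mean FPKM of at least 1 were tested from counts with edgeR 4.0.16 (R 4.3.3, TMM factors, quasi-likelihood test, 1 mean per age, all 9 libraries), with Benjamini-Hochberg adjustment over all 19264 loci and a threshold of 0.05. Changes are log2, day 210 over day 90, ± a standard error taken as the change divided by the root of F. CircRNAs seen in at least 4 libraries were tested alike. Depth was 48.9 to 62.1 M counts per library, with a biological coefficient of variation of 27.3%. Alternatives used DESeq2 1.42.0, limma 3.58.1, other filters and factors, the 6 libraries alone, a replicate block and leaving out each library. Named loci were the 12 largest increases and decreases among called loci with an informative description that do not overlap between ages, the 4 largest each way among those with none, up to 3 members per family by smallest p, all members of runs and the called and 4 most abundant circRNAs; other loci are said to be named after their values were seen. Families were drawn by words in descriptions. Members and lists were chosen with earlier results of these data known. Some results are not reported here. The scripts were tested on simulated data.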

Additional observations from a re-analysis of the deposited data

How the results depend on the processing

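Of 103 called loci DESeq2 gave 801 (503 higher, 298 lower), which held all 103, and no FPKM filter 66 (40 higher). The fit with the replicate block gave 43 (28 higher, 15 lower), 34 of them shared, and 3 circRNAs; same-numbered libraries did not deviate together (correlations of −0.07, 0.06 and 0.03), so the numbers do not pair them. The 6 libraries alone gave 44 higher, limma with pseudocounts of 0.1 and 1 gave 106 and 108 higher and 14 and 14 lower, 61 of the 103 shared at 1, and a mean FPKM of at least 3 gave 19 lower, with 75.9% of its calls higher. Leaving out 1 library gave 7 to 139 called loci, 4 to 91 higher and 3 to 48 lower. Omitting day 210 replicate 1 gave 32, omitting day 210 replicate 2 gave 35 and omitting day 30 replicate 2 gave 61. Omitting day 90 replicate 1 gave 11, and omitting either other day 90 library gave 7. These counts can include loci not among the 103. Leaving out day 30 libraries was chosen after seeing the data. Of circRNAs, 5 called, the 6 libraries gave 2, DESeq2 0, at least 20 reads 0, being seen in at least 2 libraries 10, and leaving out 1 library 2 to 6: omitting day 210 replicate 3, or day 90 replicate 1 or 2, left 3, and omitting day 90 replicate 3 left 2. Fewer samples and fewer or more features tested are part of these settings' construction; otherwise the cause was not tested. For 32 named loci 365 of 564 recomputed values kept direction and call, 199 kept direction alone, and no direction reversed. With 3 libraries per age, changes of low loci and of circRNAs, at a median of 3.26 reads, were poorly resolved.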

Other observations

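Markers of cells not described above gave further values. The neutrophil protein S100A12 was at 2.42, 1.022 and 2.98 FPKM in day 210 libraries and listed at 0 in all 3 day 90 libraries, just short of the threshold (adjusted p = 0.0579). The 4 matched neutrophil markers summed to 4.13 to 8.18 FPKM in day 210 libraries and 0.567 to 2.95 FPKM in day 90 libraries, which did not overlap. These levels were low, and S100A8 and MMP8 each overlapped between the ages. MMP8 lay below the filter and was not tested, and no neutrophil marker was called. KLRD1 and NCR1, receptors of natural killer cells, had log2 changes of −1.35 and −0.97 with adjusted p of 0.221 and 0.272, while granzymes A and B had changes of 0.01 and 0.58. The 6 erythroid markers, haemoglobin alpha the most abundant, were all lower on average, but their sums overlapped, at 307 to 1254 FPKM in day 210 libraries and 948 to 1925 FPKM in day 90 libraries, and none had an unadjusted p under 0.05.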
